A study of Mus musculus with 8 samples.

Results

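The receptors described are 9 genes through which blood cytokines act on progenitors: Kit, Csf1r, Epor, Csf2ra, Csf2rb, Csf3r, Il6ra, Il6st and Il1r1. They were chosen by gene symbol in the deposited annotated table, and all 9 were found among its 30918 genes, each with 1 probe set. Expression was measured on Affymetrix arrays in multipotent progenitors, the cells just below the long-term stem cell, with 4 arrays of Elektra cells and 4 of wild-type cells. Elektra mice were homozygous for a mutant allele of Slfn2 (Slfn2 elektra/elektra, strain C57BL/6J-Slfn2m1Btlr), described in the series title as loss of function. The controls were littermates of genotype Slfn2 wt/wt. All mice had a C57Bl/6 background and were untreated, and their ages are not given in the sources used here. In each group marrow was first enriched for c-Kit, and cells negative for CD48 and CD150 were then sorted from its LSK fraction (lineage-negative, Sca-1-positive and c-Kit-positive). Per the labels each sample pooled the bones of 2 mice, whereas the design text counts 4 mice per genotype, so the number of animals is not settled. The question was whether loss of Slfn2 alters receptor expression in these cells at steady state.

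Kit, the receptor for stem cell factor, and Csf1r, the receptor for macrophage colony-stimulating factor, are tyrosine kinases that dimerise on binding their ligand. Epor, Csf3r and the chains of the GM-CSF and interleukin-6 receptors have no kinase of their own. The GM-CSF receptor has Csf2ra and the common beta chain Csf2rb, and the interleukin-6 receptor has Il6ra and the shared signalling chain Il6st. Epor, Csf3r and both of these receptors signal through Janus kinases. Il1r1 signals through Myd88 and the interleukin-1 receptor-associated kinases. In marrow these receptors are known for their parts in progenitor survival, in emergency myelopoiesis and in the red cell, granulocyte and macrophage lineages.

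Short stretches of receptor promoters are shown because the genes of the factors known to bind such motifs were measured on the same arrays. RefSeq promoter windows of build GRCm38.p6, from 250 bases before to 50 after a gene start, were at hand for 7 of the 9 receptors. Both strands were searched for 4 motifs. PU.1 was given the letters GAGGAAG, the erythroid and stem cell factors of the GATA family were given AGATAA, the C/EBP family was given TTGCNNAA, and the STAT proteins were given TTCNNNGAA. None of these motifs contains another, though matches may share bases. Each line gives 30 bases read 5′ to 3′ along the gene's strand, with the motif, or its reverse complement, in capitals.
Kit: gagagtgctagGAGGAAGaggatccagggt
Csf3r: ctccttcctgaGAGGAAGgggctgtctatg
Csf2ra: ctgcagatGAGGAAGAGGAAGcgggagaca
Epor: ggtggctgtagcTTATCTgtccccagcctg
Il6ra: tctccTTATCTcagcgtcaaaacctgggga
Il1r1: gcctggcacgtTTGCTGAAtgcttctggct
The Kit stretch lies at chr5:75574753-75574782 on the plus strand, and that of Csf3r at chr4:126024562-126024591 on the plus strand. The Csf2ra stretch, at chr19:61228411-61228440 on the minus strand, holds 2 overlapping matches. The Epor stretch lies at chr9:21963613-21963642 on the minus strand, with the GATA motif starting 54 bases before the gene start. The Il6ra stretch lies at chr3:89913417-89913446 on the minus strand, and that of Il1r1 at chr1:40224936-40224965 on the plus strand.

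The PU.1 motif was found for 3 of 7 receptors, and 13.6% of all 32851 windows held it. The 7 receptors have 9 windows, 2 overlapping ones for Kit among them, so these counts of genes and shares of windows are unlike units. The GATA motif was found for 2 of 7 (11.2% of all windows), the C/EBP motif for 1 of 7 (10.8%) and the STAT motif for 0 of 7 (8.30%). The window of Il6st held none of the 4. A match describes these letters alone. The PU.1 gene Spi1 averaged 3.91 ± 0.09 log2 signal in Elektra arrays and 4.02 ± 0.20 in those of wild type (SD, n = 4 each, as for all later means). Gata2, the GATA factor gene of early progenitors, averaged 5.62 ± 0.51 and 5.68 ± 0.25, and Cebpa, which drives granulocyte and macrophage fate, averaged 2.78 ± 0.35 and 2.90 ± 0.29, in the same order. None of these factor genes, picked for the motifs, differed beyond the spread between arrays (limma adjusted p of 0.911 for Spi1, 0.984 for Gata2 and 0.943 for Cebpa).

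The arrays were alike in scale. Their medians lay between 2.02 and 2.13 log2 signal, and every pair correlated at 0.966 or above over 34390 probe sets. Elektra replicate 2 stood apart, with a lower quartile of 1.43 where the others had 1.32 to 1.36, and an upper quartile of 3.63 where the others had 3.80 to 3.83. On the first principal component it scored 62.0 and the others between -16.6 and -2.72. Of the sorted markers, Ly6a (Sca-1) averaged 9.27 ± 0.16 in Elektra and 8.91 ± 0.36 in wild type, at the 99.6th percentile of genes. Of the genes of the excluded surface proteins, Slamf1 (CD150) was dim at 1.80 ± 0.35 and 1.66 ± 0.34, whereas Cd48 was at 4.01 ± 0.16 and 3.85 ± 0.36, above the median gene level of 2.10. The Slfn2 transcript averaged 2.10 ± 0.08 in Elektra and 2.08 ± 0.31 in wild type (limma adjusted p = 0.989). It was dim, at the 49.8th percentile of genes, where the arrays do not show whether a transcript was present and a change could be understated. As Elektra is a coding mutation, this level is no check on the genotype labels.

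None of the 9 receptors passed the test between genotypes. In limma, with Benjamini-Hochberg adjustment over all 30918 genes, 0 receptors had an adjusted p under 0.05, where 0% of all genes did. At an unadjusted p under 0.05 the count was 0 of 9 receptors and 1702 genes (5.50%), and a pooled-variance test gave 1 receptor (Kit) and 1572 genes at that level and 0 of either after adjustment. Elektra and wild-type arrays overlapped for every receptor, while they lay apart for 3.23% of genes. The mean was higher in Elektra for 5 receptors and lower for 4, against 53.9% and 46.1% of all genes. Of genes above the median level, where 8 of the 9 receptors lay, 45.7% were higher. The median log2 change was 0.05 over the receptors and 0.01 over all genes. For 8 of the 9 receptors, Il1r1 being the exception, the 95% interval of the change excluded log2 values beyond -1 and 1, against 97.5% of genes. In bulk cells, fewer receptor-bearing cells and less receptor RNA per cell cannot be told apart.

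**Figure D1:**
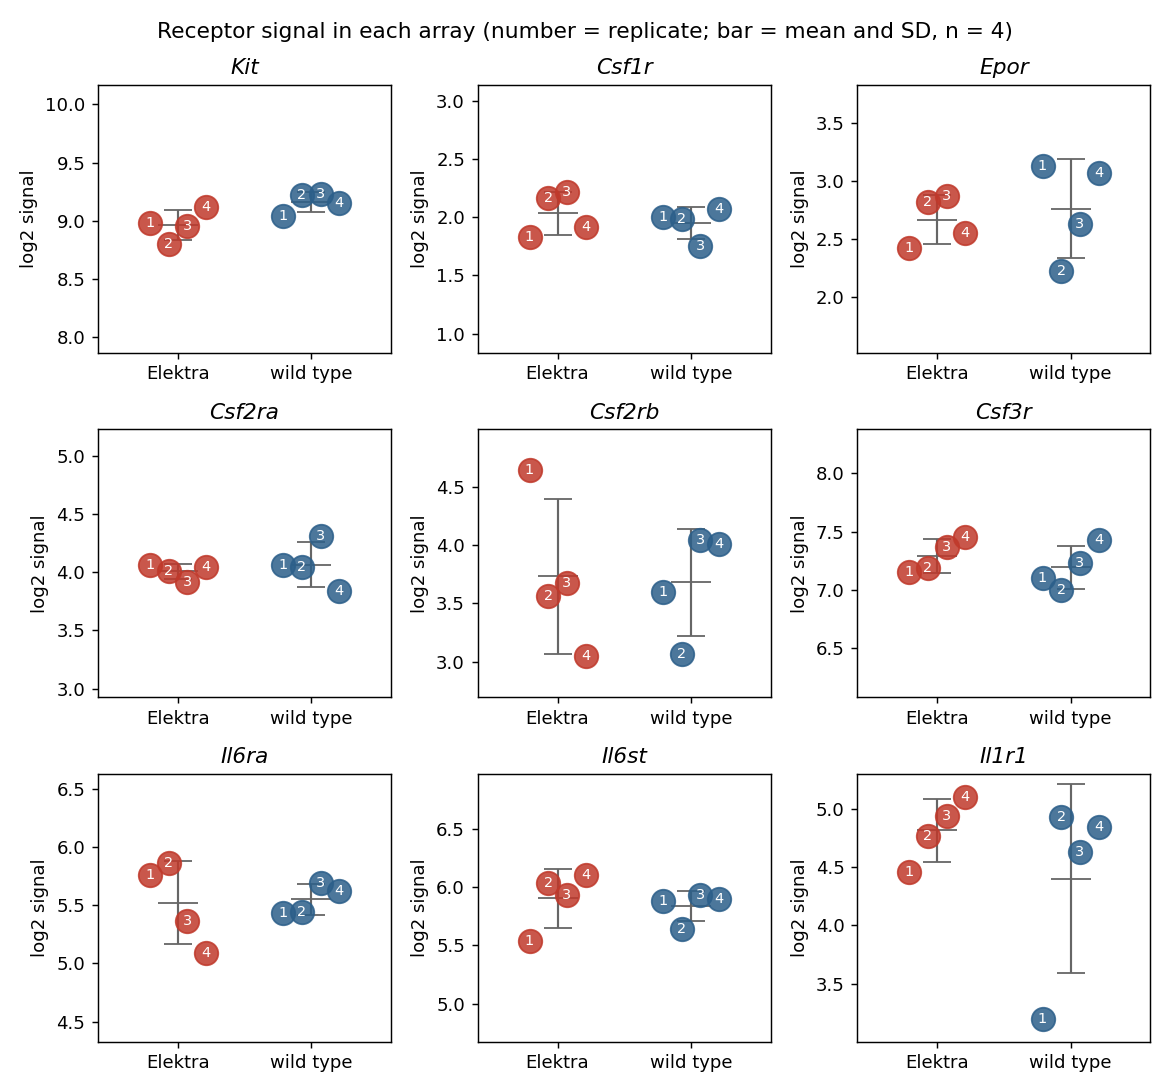
Log2 signal (vertical axis, the same span in each panel) of the 9 receptors in 4 Elektra arrays (left, red) and 4 wild-type arrays (right, blue). Points are single arrays numbered by replicate, and bars give the mean and SD. The groups overlap in every panel, and Csf2rb and Il1r1 have the widest scatter.

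Kit had the smallest p-value of the 9, with Elektra leaning low. Its log2 signal was 8.98, 8.80, 8.96 and 9.12 in Elektra replicates 1 to 4, against 9.04, 9.22, 9.23 and 9.15 in wild-type replicates 1 to 4. Only Elektra replicate 4 reached into the wild-type range, where it lay above wild-type replicate 1. The log2 change was -0.20 (SE 0.10, 95% interval -0.42 to 0.02), a linear ratio of 0.872 with an interval from 0.747 to 1.02. The limma p was 0.0757 unadjusted and 0.884 adjusted, and a two-sided exact permutation test over 70 relabelings gave p = 0.0571, where 0.0286 is the smallest it can give. The authors' deposited table lists an unadjusted p of 0.0457 for Kit. The change kept its sign on leaving out each array, and was smallest (-0.14) without Elektra replicate 2. That array held the lowest Kit value and stood apart on the whole profile. Kit was among the brightest genes, at the 99.6th percentile, with a within-group SD of 0.11. Because cells were sorted for c-Kit protein, these values describe cells already chosen for it. Among 8 genes of mast cells, which also bear c-Kit, and of basophils, 1 lay above the median gene level. Their mean ranged from 1.37 to 1.58 in Elektra and from 1.28 to 1.43 in wild type. Of the 8, 6 were higher and 2 lower in Elektra, against 53.9% and 46.1% of all genes. Among genes above the median level 45.7% were higher, so dim genes, as most of these were, were more often higher. Markers of other cells are given here and below beside the receptor they could bear on, and their part in the receptor values was not tested.

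Csf1r was dim in all arrays, at the 47.1st percentile of genes. Its log2 signal was 1.83, 2.16, 2.22 and 1.91 in Elektra replicates 1 to 4, against 2.00, 1.99, 1.75 and 2.07 in wild type. The lowest value of all was in wild-type replicate 3 and the highest in Elektra replicate 3. Csf1r had a log2 change of 0.08 (SE 0.12, 95% interval -0.19 to 0.35, limma adjusted p = 0.937), which was 0.01 with wild-type replicate 3 left out and 0.15 with Elektra replicate 1 left out. At this level the arrays do not show whether the transcript was present, and a change could be understated. The 8 monocyte and macrophage markers were also low, with means from 1.92 to 2.33 in Elektra and 1.99 to 2.33 in wild type. Of them 4 lay above the median gene level, and 4 were higher and 4 lower in Elektra.

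Epor, needed for red cell progenitors to survive, varied more in wild type than in Elektra. Elektra arrays gave 2.43, 2.82, 2.87 and 2.56 log2 signal in replicates 1 to 4. Wild-type arrays gave 3.13, 2.22, 2.63 and 3.07. The wild-type values thus enclosed all those of Elektra. The change of Epor was -0.09 on the log2 scale (SE 0.20, 95% interval -0.54 to 0.35, limma adjusted p = 0.959), and leaving out either high wild-type array turned its sign, to 0.03 (replicate 1) or 0.01 (replicate 4). Without wild-type replicate 2 it was -0.27. The mean of 8 erythroid markers ranged from 2.90 to 3.61 in Elektra and from 2.99 to 3.39 in wild type. Of the 8, 3 were higher and 5 lower in Elektra. The globin gene Hbb-bt was bright and uneven, at 6.68 ± 0.83 in Elektra and 7.04 ± 0.66 in wild type. Car1, a carbonic anhydrase gene, lay the other way, at 6.02 ± 0.73 in Elektra and 5.25 ± 0.39 in wild type (log2 change 0.77, limma adjusted p = 0.884). It was the only one of the 8 with an unadjusted p under 0.05.

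The GM-CSF receptor chains behaved unlike each other from array to array. Csf2ra, the ligand-binding chain, was the steadiest receptor beside genes of like level: its within-group SD of 0.14 exceeded that of 12.4% of the 500 genes nearest to it in level. Its log2 signal was 4.06, 4.01, 3.91 and 4.04 in Elektra replicates 1 to 4, against 4.06, 4.04, 4.31 and 3.84 in wild type. The 4 Elektra arrays lay within the wild-type range. Csf2ra differed by a log2 change of -0.06 (SE 0.11, 95% interval -0.30 to 0.19, limma adjusted p = 0.955), and it was 0.03 without wild-type replicate 3 and 0.00487 with quantile normalisation.

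Csf2rb, the signalling chain shared with the receptors for interleukin-3 and interleukin-5, scattered widely in both genotypes. It was at 4.64, 3.57, 3.68 and 3.05 log2 signal in Elektra replicates 1 to 4, against 3.60, 3.06, 4.05 and 4.01 in wild type. Elektra arrays held both the highest and the lowest value of the 8. The within-group SD of 0.57 exceeded that of 98.3% of all genes, and the 500 genes of like level had a median SD of 0.26. Csf2rb differed by 0.05 in log2 change (SE 0.32, 95% interval -0.67 to 0.77, limma adjusted p = 0.989), or linear ratios from 0.629 to 1.71. Single arrays moved this value, to -0.25 when Elektra replicate 1 was left out, to 0.28 when Elektra replicate 4 was, and to -0.15 when wild-type replicate 2 was. Csf2rb2, the neighbouring mouse gene for the interleukin-3-specific beta chain, is a close relative, and probes may not separate the pair fully. Csf2rb2 gave 4.54, 4.85, 3.70 and 3.45 in Elektra replicates 1 to 4, against 3.89, 3.96, 3.83 and 4.43 in wild type. It was thus also uneven in Elektra, with replicates 1 and 2 high, whereas Csf2rb was high in replicate 1 alone. The Csf2rb2 log2 change was 0.11 (95% interval -0.54 to 0.76, limma adjusted p = 0.969).

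Csf3r, the G-CSF receptor of the granulocyte lineage, was bright in all arrays, at the 98.2nd percentile. Its log2 signal was 7.15, 7.19, 7.37 and 7.45 in Elektra replicates 1 to 4, against 7.11, 7.00, 7.24 and 7.43 in wild type. The top value of each genotype was nearly the same, and the lowest values were in wild type. The difference was 0.10 in log2 change (SE 0.12, 95% interval -0.17 to 0.37, limma adjusted p = 0.922), a linear ratio from 0.887 to 1.29. Leaving out wild-type replicate 2 lowered it to 0.03, and leaving out replicate 4 raised it to 0.18. The mean of 8 markers of maturing neutrophils varied far more, ranging from 2.39 to 3.68 in Elektra and from 2.16 to 4.22 in wild type. This did not hold for Mmp8 and Retnlg, both below the median gene level. Their within-group SDs were 0.18 and 0.21, beside 0.17 for Csf3r. The granule gene Ngp, the most variable of the 8, ranged from 3.45 to 6.12 in Elektra and from 3.03 to 7.06 in wild type. The array richest in these markers, wild-type replicate 2, had the lowest Csf3r, whereas the next richest, Elektra replicate 4, had the highest. A relation between the markers and Csf3r was not tested.

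The interleukin-6 receptor chains differed between arrays in different patterns. Il6ra, which binds the ligand, was at 5.76, 5.86, 5.37 and 5.09 log2 signal in Elektra replicates 1 to 4, against 5.43, 5.45, 5.69 and 5.62 in wild type. Elektra held the extremes, with replicates 1 and 2 above and replicates 3 and 4 below all wild-type arrays. The SD of Il6ra was thus 0.36 among Elektra arrays against 0.13 among wild-type ones. The log2 change was -0.03 (SE 0.17, 95% interval -0.40 to 0.34, limma adjusted p = 0.989). Its sign turned when Elektra replicate 3 (0.02), Elektra replicate 4 (0.11) or wild-type replicate 3 (0.02) was left out, and under quantile normalisation (0.03). Il6st was at 5.54, 6.03, 5.94 and 6.11 in Elektra replicates 1 to 4, against 5.88, 5.64, 5.93 and 5.90 in wild type. Elektra replicate 1, high in Il6ra, was the lowest array in Il6st, and Elektra replicate 4, lowest in Il6ra, was the highest. The log2 change of Il6st was 0.07 (SE 0.14, 95% interval -0.24 to 0.37, limma adjusted p = 0.955), and it was -0.00075 without Elektra replicate 4.

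Il1r1, the signalling receptor for interleukin-1, had the largest mean difference of the 9, and a single wild-type array set it. Elektra replicates 1 to 4 gave 4.46, 4.77, 4.94 and 5.10 log2 signal, against 3.20, 4.93, 4.63 and 4.84 in wild type. Wild-type replicate 1 lay far below the other 7 arrays, which spanned 4.46 to 5.10. Il1r1 had a log2 change of 0.41 (SE 0.34, 95% interval -0.35 to 1.18, limma adjusted p = 0.898), and it was 0.01 without wild-type replicate 1. The upper bound corresponds to a linear ratio of 2.26. The within-group SD of 0.61 exceeded that of 98.6% of all genes.

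**Figure D2:**
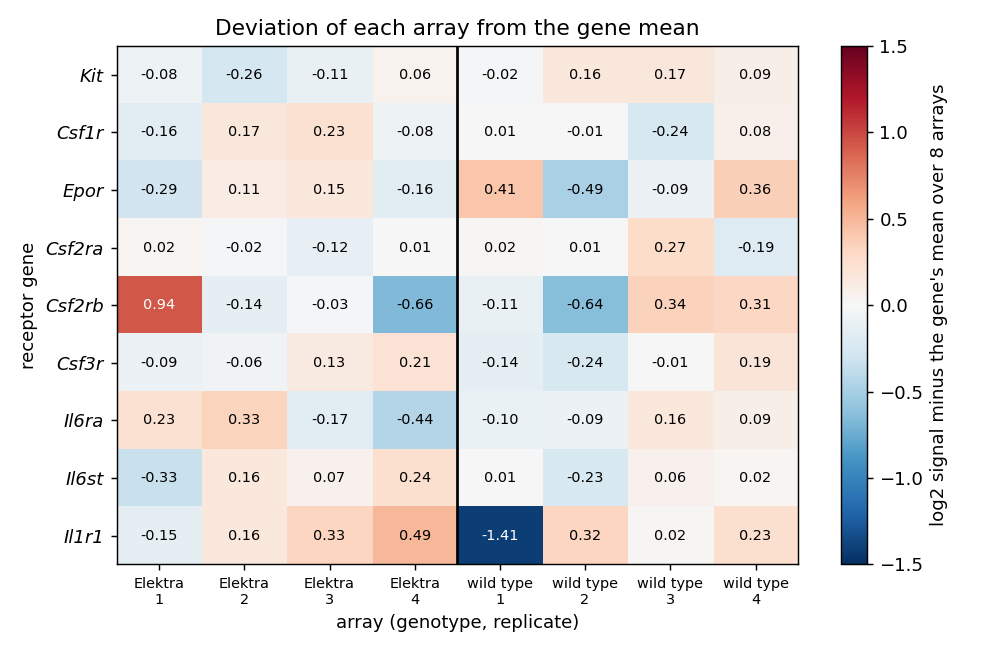
Log2 signal of each receptor (rows) in each array (columns, Elektra left of the line, wild type right) minus the gene's mean over the 8 arrays. The deepest colours are Il1r1 in wild-type replicate 1 (-1.41) and Csf2rb in Elektra replicate 1 (0.94), and no column is of 1 colour throughout.

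Correlations between pairs of receptors across arrays were of mixed sign. Over 8 arrays 36 pairs were correlated, 19 of them negatively, with Pearson's r between -0.770 and 0.662. None passed a two-sided exact permutation test after adjustment over the 36 pairs (lowest adjusted p = 0.706 for Pearson and 0.386 for Spearman), and 1 had an unadjusted Pearson p under 0.05. With 8 arrays, these tests could miss moderate correlations. The highest positive r were 0.66 (Csf2rb with Il6ra) and 0.63 (Csf3r with Il6st). The chains of the GM-CSF receptor had r = 0.10 and rho = 0.29 (exact permutation p = 0.821 and 0.501, adjusted p = 0.954 and 0.838), and r = 0.05 without the 2 arrays farthest from the Csf2ra median. The chains of the interleukin-6 receptor had r = -0.32 and rho = -0.29 (exact permutation p = 0.441 and 0.501, adjusted p = 0.855 and 0.838), and r = -0.34 without 2 arrays. The kinase pair Kit and Csf1r had r = -0.59 and rho = -0.62 (exact permutation p = 0.124 and 0.115, adjusted p = 0.855 and 0.680). With Elektra replicate 2 and wild-type replicate 3 left out the r of that pair was -0.18. These were the arrays farthest from the Kit median. The pair with the unadjusted p under 0.05, named after its value was seen, was Csf1r with Csf2ra (r = -0.77, exact permutation p = 0.0196, adjusted p = 0.706), with r = -0.46 after Elektra and wild-type replicates numbered 3 were left out.

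Among 11908 genes above the median level with a function name, the one most like each receptor over the 8 arrays was sought. It was Nupl2 for Kit (r = 0.98), Rab36 for Csf1r (0.96), Nxpe3 for Epor (0.93) and Hmgxb3 for Csf2ra (0.97). For Csf2rb it was Apobec1 (0.96), for Csf3r Trim25 (0.94), for Il6ra Stx8 (0.97), for Il6st Slc10a4 (0.94) and for Il1r1 N6amt2 (0.97). Between 4 genes (Il6st) and 45 genes (Kit) had an r above 0.9 with a receptor. These are the highest of many values over 8 arrays and describe likeness in these arrays alone.

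Other genes of the same pathways were also compared, and none passed. Of 40 further haematopoietic cytokine receptors 22 were higher and 18 lower in Elektra. Their median change was 0.02 on the log2 scale, with 0 at an adjusted p under 0.05. An unadjusted p under 0.05 was reached by 5 of 40, 2 higher and 3 lower, against 5.50% of all genes, and in 5 of 40 the genotypes did not overlap, against 3.23%. Flt3, the receptor of lymphoid-primed progenitors, was at 7.31, 7.04, 7.07 and 6.94 in Elektra replicates 1 to 4, against 7.48, 7.49, 7.37 and 7.36 in wild type. All Elektra arrays lay below all wild-type arrays, with Elektra replicate 1 the nearest. Flt3 had a log2 change of -0.34 (SE 0.10, 95% interval -0.57 to -0.10, limma adjusted p = 0.884). Il10rb, a chain of the interleukin-10 receptor, averaged 5.71 ± 0.26 in Elektra and 6.07 ± 0.12 in wild type.

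Ligand genes were mostly dim, 7 of 19 measured lying above the median gene level. Of them 11 were higher and 8 lower in Elektra (median log2 change 0.05), against 53.9% and 46.1% of all genes. Genes below the median level, as most ligand genes were, were more often higher than those above it (45.7%). An unadjusted p under 0.05 was reached by 4, against 5.50% of all genes. Clcf1, whose product signals through Il6st, averaged 4.00 ± 0.05 in Elektra arrays and 4.53 ± 0.12 in wild-type ones (log2 change -0.53, limma adjusted p = 0.884). Osm, another ligand of receptors with Il6st, averaged 2.83 ± 0.12 and 3.12 ± 0.17, and Thpo, the thrombopoietin gene, averaged 2.05 ± 0.13 and 1.79 ± 0.14, Elektra first.

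Of 24 genes of proximal signalling 10 were higher and 14 lower (median -0.04), with 2 at an unadjusted p under 0.05, against 5.50% of all genes. Jak2, the kinase bound by Epor and Csf2rb, was at 5.37, 5.29, 5.19 and 5.46 log2 signal in Elektra replicates 1 to 4, against 5.52, 5.63, 5.66 and 5.68 in wild type. The groups lay apart by a narrow margin, between Elektra replicate 4 and wild-type replicate 1. Its log2 change was -0.30 (SE 0.10, 95% interval -0.51 to -0.08, limma adjusted p = 0.884). The signalling adaptor Vav1 averaged 5.65 ± 0.19 in Elektra and 5.92 ± 0.12 in wild type, and Irak1, a kinase downstream of Il1r1, 5.13 ± 0.13 and 5.38 ± 0.21.

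Of 17 brakes and shedding enzymes 9 were higher and 8 lower (median 0.07), with 2 at an unadjusted p under 0.05, against 5.50% of all genes, and 3 whose genotypes did not overlap, against 3.23%. Socs1, a feedback inhibitor of Janus kinases, gave 3.85, 3.68, 3.94 and 3.72 in Elektra replicates 1 to 4, against 3.53, 3.54, 3.37 and 3.56 in wild type. All Elektra arrays lay above all wild-type arrays (log2 change 0.30, SE 0.10, 95% interval 0.08 to 0.51, limma adjusted p = 0.884). Inpp5d, the SHIP phosphatase gene, averaged 6.63 ± 0.12 in Elektra and 6.86 ± 0.10 in wild type, and Cbl, a ubiquitin ligase for Kit and Csf1r, 6.79 ± 0.15 and 6.98 ± 0.06. Neither passed, although the genotypes did not overlap for either.

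Of 20 genes known to be induced through these receptors 9 were higher and 11 lower (median -0.02), with 1 at an unadjusted p under 0.05, near the 5.50% of all genes. That gene was Id1, at 2.04 ± 0.14 in Elektra and 1.70 ± 0.19 in wild type. Id1 was dim, at the 43.7th percentile of genes, where the arrays do not show whether a transcript was present. Bcl3 averaged 3.84 ± 0.26 and 3.61 ± 0.08, and Nfkbia, a target of interleukin-1 signalling, 5.51 ± 0.33 and 5.77 ± 0.16. Of 14 transcription factors of receptor genes 6 were higher and 8 lower (median -0.03), with 1 at that level, against the same 5.50%. It was Tal1, a factor of stem and erythroid cells, at 4.27, 3.45, 4.19 and 4.31 in Elektra replicates 1 to 4, against 4.63, 4.69, 4.76 and 4.79 in wild type. Elektra replicate 2, the array that stood apart on the whole profile, was the lowest, and the other 3 Elektra arrays also lay below all wild-type arrays. Tal1 had a log2 change of -0.66 (SE 0.18, 95% interval -1.06 to -0.26, limma adjusted p = 0.884). Irf8 averaged 2.32 ± 0.23 in Elektra and 2.06 ± 0.09 in wild type, and Runx1 5.97 ± 0.16 and 6.21 ± 0.23.

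**Figure D3:**
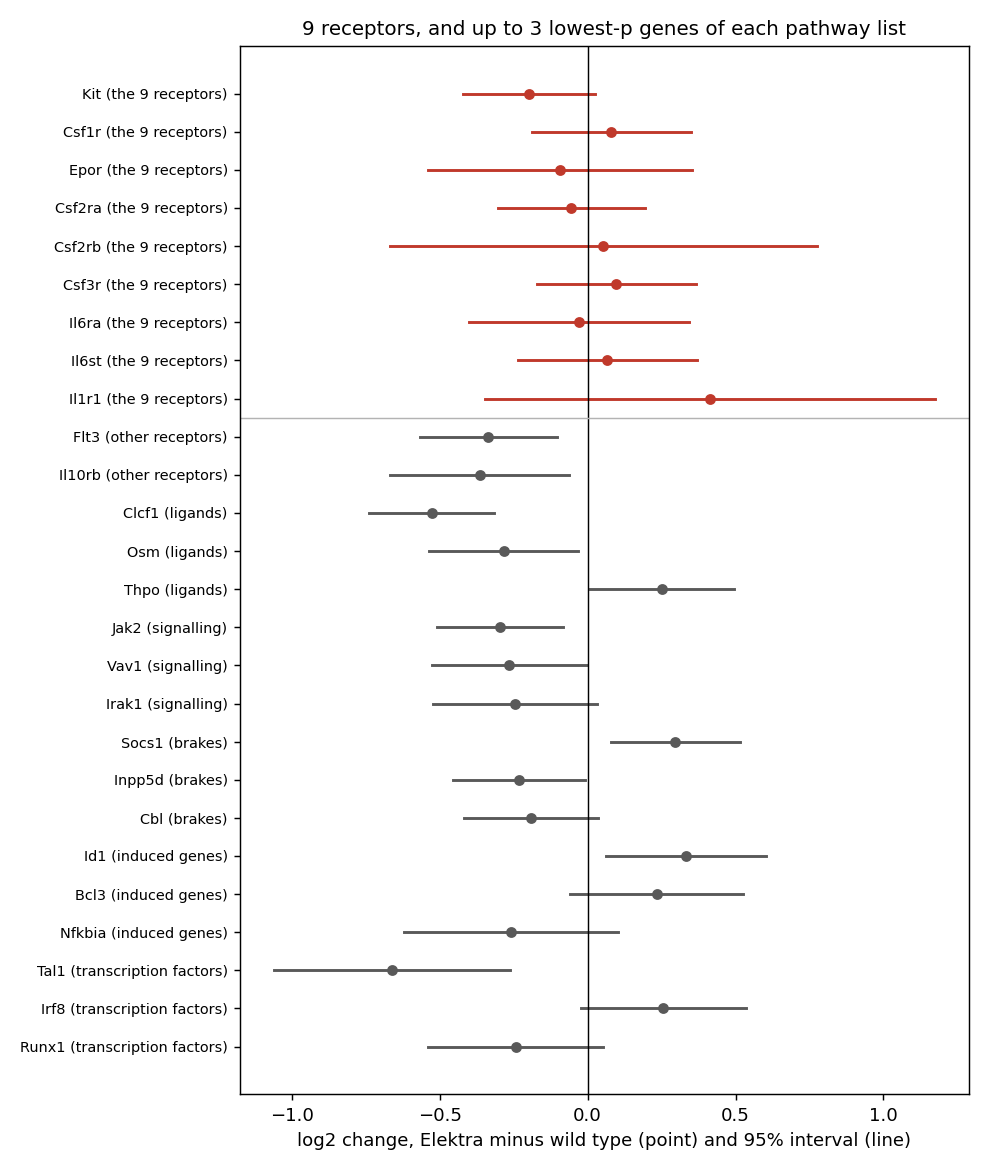
Log2 change, Elektra minus wild type (horizontal axis, points), with 95% intervals (lines) for the 9 receptors (red, above the line) and for up to 3 genes of smallest p in each pathway list (grey). The intervals of all 9 receptors include 0. The grey genes were picked for small p-values, and none passed after adjustment over all genes.

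**Figure D4:**
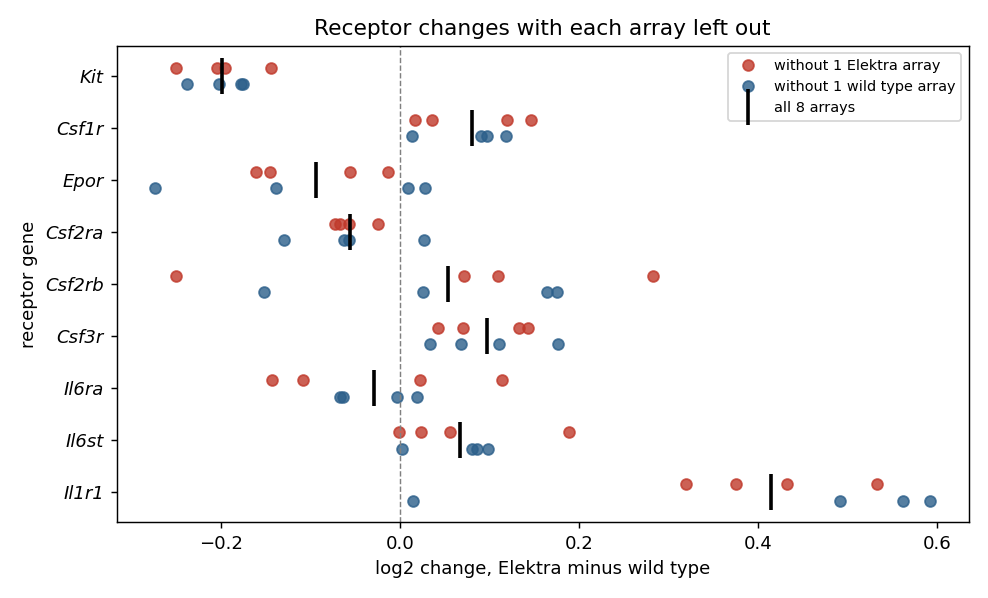
Log2 change of each receptor, Elektra minus wild type (horizontal axis), with all 8 arrays (black bar) and with each Elektra array (red) or wild-type array (blue) left out. Il1r1 drops to 0.01 without wild-type replicate 1, and Csf2rb ranges from -0.25 to 0.28.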

How the data were processed

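RNA of sorted progenitors, 100 to 200 pg per sample, was amplified with 12 cycles of PCR and hybridised to 1 array per sample, per the labels' protocols. Per the submitters' processing notes, the log2 values that the authors deposited came from RMA as run by Affymetrix Expression Console 1.4. Background, scale and probe summaries were thus already set. A genome build for these values was not named in the sources used here. The deposited p-values were those of a pooled-variance test on these values, to within 2.88e-12. The signed fold score of the authors' deposited table was not used. A deposited series table of 41345 probe sets served as an alternative, and differed from the annotated one by at most 0.121 for the receptors.

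Of 34390 annotated probe sets 31872 had 1 symbol, 2517 none and 1 several. Each gene was taken as its probe set with the highest mean over the arrays. Genotypes were compared in limma 3.58.1 (R 4.3.3), by lmFit followed by eBayes, with a threshold of 0.05 after adjustment. As the number of animals is not settled, p-values measure the spread between these samples. In data simulated with the spreads of these 30918 genes, with 200 genes above the median level changed, 15.8% of changes of 0.5 and 68.8% of changes of 1 on the log2 scale were found. The adjusted threshold is easier to pass with 200 genes changed than with few, so these shares may be too high for the receptors. Csf1r lay below the level simulated. The members and lists were chosen with earlier results of these data known. Genes named by rule besides the receptors were the sort markers, Slfn2, up to 3 genes of smallest p in each pathway list and the gene most like each receptor. Spi1, Gata2 and Cebpa were named for the motifs, and Csf2rb2 as a relative of Csf2rb. Hbb-bt, Car1 and Ngp were examples from the marker lists, picked by no set rule. Some results on single genes are not reported here. Of the ligand list, Cntf had no row. The replicate numbers were not taken to pair the samples in the main test, and served as a block in an alternative. Deviations of same-numbered arrays correlated at 0.192, 0.0401, 0.159 and 0.0731 for replicates 1 to 4. The highest r with an array of another number was 0.160, 0.0952, 0.192 and 0.0641. These values do not settle whether the numbers pair the samples. Alternatives were the other table, normalisation, a filter on dim probe sets, handling of probe sets, variance models, the replicate number as a block, an adjusted p of 0.10 and left-out arrays.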

Additional observations from a re-analysis of the deposited data

Results flagged for a closer look

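Single arrays far from their group, by Dixon's 95% criterion for the gap to the nearest of 4 values as a share of their range, were looked for in 66 groups of 33 genes. Chance flags about 1 in 20 groups, and 3 values stood out, none in a receptor of the 9. Irak1 was at 5.69 in wild-type replicate 2, above the other wild-type arrays. Socs1 was at 3.37 in wild-type replicate 3, below the others. Tal1 was at 3.45 in Elektra replicate 2, the array with the narrowest spread of values. Il1r1 in wild-type replicate 1 (3.20) came just under the criterion, with a gap of 0.826 of the range.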

How the results depend on the processing

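In each of the 21 alternatives run, 0 genes and 0 receptors passed. The lowest adjusted p of any gene lay between 0.0882 and 0.969, that of any receptor was 0.768, and the genes at an unadjusted p under 0.05 numbered between 1062 and 2115. At that level 814 of 1702 genes were higher in Elektra as reported and 452 of 1725 with median centring. Kit had an unadjusted p under 0.05 in 3 of 20 alternatives: an intensity trend with a robust prior (0.0358), the pooled-variance test (0.0457) and without Elektra replicate 4 (0.0389). Its limma p was 0.171 without Elektra replicate 2. It was highest, at 0.391, without Elektra replicates 2 and 3 and wild-type replicate 4 together. The number of receptors lower in Elektra was 4, but 2 with quantile normalisation, and between 2 and 5 on leaving out each array. Of 180 single receptor values 13 turned sign, in 6 receptors and never in Kit, Csf3r or Il1r1; the cause was not tested. With quantile normalisation the log2 changes of Csf2ra and Il6ra were 0.00487 and 0.0344. Without Elektra replicate 3 and wild-type replicate 4 together that of Il6ra was 0.0481, and without these and Elektra replicate 2 that of Csf1r was -0.0412. On leaving out each array the log2 change lay between -0.27 and 0.0280 for Epor, -0.13 and 0.0270 for Csf2ra, -0.25 and 0.28 for Csf2rb, -0.14 and 0.11 for Il6ra, and -0.00075 and 0.19 for Il6st. The replicate block gave 0 genes and 0 receptors, with 1880 genes at an unadjusted p under 0.05 and a lowest receptor p of 0.0920 (Il1r1), and changed no call. The number of arrays, 4 per group, limits the precision, and the SEs were largest among the receptors for Csf2rb and Il1r1 (0.32 and 0.34).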
